A study of Mus musculus with 4 samples.

Results

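Markers of the primed epiblast and of neuroectoderm were followed in mouse embryonic stem cells 1 h after the addition of bone morphogenetic protein 2 (BMP-2). They are 10 genes, Otx2, Pou3f1, Fgf5, Zic2, Sox1, Pax6, Neurod1, Nes, Tubb3 and Sox11, and were chosen by symbol: each probe set whose only gene in the platform annotation is one of them was taken. This gave 25 of the 45101 probe sets on the array. The treated group was E14Tg2A.4 cells given BMP-2 at 25 ng/ml for 1 h (2 arrays), and the other group was untreated E14Tg2A.4 cells (2 arrays). E14Tg2A.4 is a subline of the Hprt-deficient male embryonic stem cell line E14Tg2a, so all 4 arrays report on 1 cell line. The culture medium is not given in the sources used here, and the labels do not say whether replicate arrays had cultures of their own, so the p-values rest on a spread that could be technical. The values are MAS5 signals, the linear brightness of an Affymetrix probe set. Of the 25 probe sets, 19 were bright enough to be tested, with a mean log2 signal above 5.73 (a signal of 53.0, the signal limit), and they covered 9 of the 10 genes. Both Sox1 probe sets lay below the limit.

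Naive embryonic stem cells pass through a primed, epiblast-like state before they enter the germ layers. Otx2, Pou3f1 and Fgf5 are switched on in that state, and Sox1, Pax6 and Zic2 mark the neural plate that forms from it when BMP signals are low. BMP receptors phosphorylate SMAD1 and SMAD5, which induce the Id genes. Id proteins pair with basic helix-loop-helix factors and keep them off the E-box, the DNA element CANNTG, and they are known to hold back neural entry of embryonic stem cells. NeuroD1 is itself such an E-box-binding factor.

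The array medians were 81.8 and 94.9 with BMP-2, against 82.5 and 94.6 without. All 17 embryonic stem cell markers were above the signal limit, and the signals of the brightest probe sets of those 17 genes summed to 116503 and 111269 with BMP-2, against 117477 and 110784 without. Of 11 fibroblast feeder cell markers on the array 4 were above the limit (Thy1, Acta2, Col1a2 and Tagln), and their signals summed to 1664 and 1899 with BMP-2, against 1801 and 1721 without. None is listed at 0, and Col1a1, Col3a1, Postn, S100a4, Dcn, Lum and Pdgfrb were below the limit. The control probe sets for 18S ribosomal RNA were 3.94 to 6.11 times as bright on untreated replicate 2 as on the next brightest array. The part of this in the results below was not tested. The ratio of 3' to 5' control signal on that array was 1.08 (Actb) and 1.01 (Gapdh) times the mean of the other arrays. Without that array the difference changed sign for 5 of the 19 tested marker probe sets (2 of Pax6 and 1 each of Zic2, Nes and Sox11). The sign changed for 4 without treated replicate 2, and for 1 without treated replicate 1 and 1 without untreated replicate 1.

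The Id genes, the known targets of this pathway, were read first as a check of the treatment. Id1 had signals of 9738 and 9495 with BMP-2, against 3129 and 3007 without, a log2 difference of 1.65 ± 0.07 (SE, adjusted p = 2.0e-05 by limma). Id2 rose by 1.76 log2 and Id3 by 1.73 log2 (adjusted p = 3.6e-05 by limma for each). The other Id2 probe sets gave 1.15 log2 (adjusted p = 0.0085 by limma) and 0.99 log2, of which the second did not pass. Id4 differed by 0.78 log2 (adjusted p = 1.00 by limma) and by 1.54 and 0.68 log2 on its other probe sets (adjusted p of 0.0561 and 1.00 by limma). Over the whole array 5 of 27022 probe sets passed an adjusted p of 0.05, which is 0.0185%, all of them higher. Fitted without the trend of the spread on brightness, limma passed 0 probe sets (1023 at an unadjusted p under 0.05), and after median centring it passed 17, of which 12 were higher.

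None of the 19 tested marker probe sets passed in limma (adjusted p = 1.00 for each, after rounding). At an unadjusted p under 0.05 there were 2, one of Pou3f1 and one of Neurod1, both lower with BMP-2, where 3.07% of all tested probe sets met that level and 1.15% met it with a lower signal. Of the 19, 9 were higher and 10 lower with BMP-2, and after quantile normalization or median centring 7 were higher and 12 lower. For 6 of the 19 (31.6%, 2 higher and 4 lower) the signals of the 2 groups did not overlap, beside 28.4% of all tested probe sets (15.9% higher and 12.5% lower). After quantile normalization this was so for 9 (47.4%, 2 higher and 7 lower), beside 30.2% of all tested probe sets (14.8% lower). After median centring it was so for 8 (42.1%, 1 higher and 7 lower), beside 27.6% (16.0% lower). In each of these settings the lower ones include both probe sets of Pou3f1 and both of Neurod1. Probe sets of a gene read the same RNA, so these counts are not counts of genes. On the brightest probe set of each of the 9 genes, before either rescaling, 1 gene was higher and 2 were lower without overlap. Taking the brightest probe set of each gene, 4 genes were higher and 5 lower, with a median difference of -0.02 log2, beside 0.01 log2 over all tested probe sets. With the mean of a gene's tested probe sets the median became -0.17 log2. Pax6 was the median gene both ways, so this move is that of Pax6 when its dim probe sets are averaged in. No value over all genes averaged this way is given beside it. In RNA from a whole culture, fewer cells that express a gene and less of its RNA per cell cannot be told apart.

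**Figure D1:**
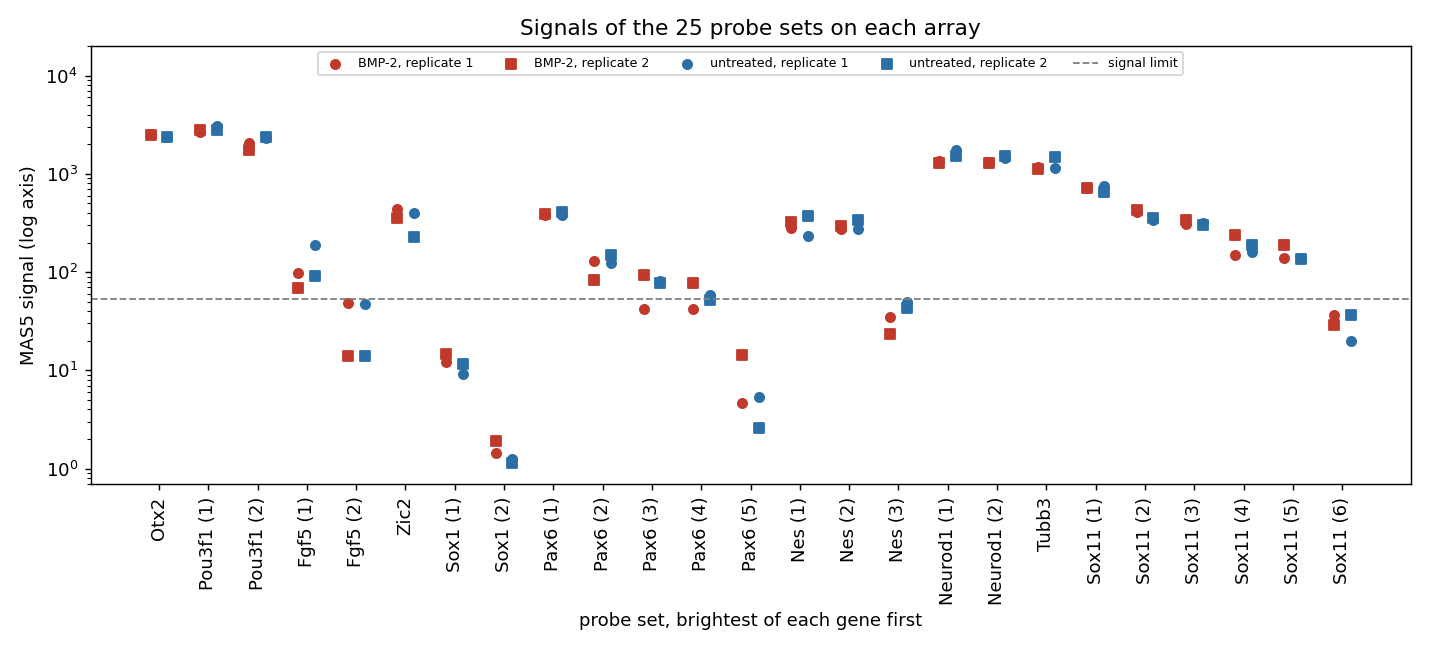
MAS5 signal on a log axis for each of the 25 probe sets, with the 2 BMP-2 arrays in red on the left of each position and the 2 untreated arrays in blue on the right; circles are replicate 1, squares replicate 2, and the dashed line is the signal limit of 53.0. Red and blue points lie close together for most probe sets, both Neurod1 probe sets and both Pou3f1 probe sets have their red points below their blue points, and both Sox1 probe sets lie below the limit on every array.

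Among the primed epiblast genes, Otx2 and Pou3f1 were measured most precisely. Otx2, a homeobox factor that drives the exit from the naive state, had signals of 2565 and 2461 with BMP-2, against 2349 and 2383 without. The treated arrays lay above the untreated ones without overlap, by 0.09 ± 0.09 log2 (SE, adjusted p = 1.00 by limma), and the groups overlapped after median centring. The 95% interval of the Otx2 fold ran from 0.93 to 1.21.

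Pou3f1, also called Oct6, encodes a POU-domain factor of the primed epiblast that also favours neural entry. Its brighter probe set (1460038_at) read 2637 and 2786 with BMP-2, against 3095 and 2817 without. Its other probe set (1422068_at) read 2057 and 1745 with BMP-2, against 2324 and 2356 without. Both probe sets were lower on each treated array than on each untreated array, and this held after quantile normalization and after median centring. The log2 differences were -0.12 ± 0.09 (SE, adjusted p = 1.00 by limma) for the brighter probe set and -0.30 ± 0.10 (SE, adjusted p = 1.00 by limma) for the other. The fold intervals were 0.80 to 1.05 and 0.69 to 0.95. Leaving out an array moved the brighter one between -0.19 (without untreated replicate 2) and -0.06 log2 (without untreated replicate 1) and the other between -0.42 (without treated replicate 1) and -0.19 log2 (without treated replicate 2).

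Fgf5, a secreted growth factor and a classic marker of the primed epiblast, was dim. Its probe set above the limit (1438883_at) read 98.8 and 68.8 with BMP-2, against 189 and 90.6 without. The groups overlapped, because treated replicate 1 read more than untreated replicate 2. The difference was -0.67 ± 0.37 log2 (SE, adjusted p = 1.00 by limma), and it was -0.14 log2 without untreated replicate 1 and -1.20 log2 without untreated replicate 2. The other Fgf5 probe set read 48.0 and 14.1 with BMP-2, against 47.1 and 14.0 without, below the limit on every array. On that probe set the 2 groups read nearly alike, and the arrays numbered 1 were the higher ones in each.

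Among the neural plate genes, Zic2 encodes a zinc finger factor active in both the epiblast and the forming neural plate. Zic2 had signals of 438 and 354 with BMP-2, against 400 and 228 without. The groups overlapped, and untreated replicate 2 stood apart at the low end. The difference of 0.38 ± 0.24 log2 (SE, adjusted p = 1.00 by limma) became -0.02 log2 without that array and 0.79 log2 without untreated replicate 1.

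Sox1, a SOX factor that is among the earliest specific markers of neuroectoderm, read 12.0 and 14.7 with BMP-2, against 9.19 and 11.7 without, on its brighter probe set. The other Sox1 probe set read 1.43 and 1.91 with BMP-2, against 1.25 and 1.14 without. Signals this far below the limit give no usable fold, although the treated arrays were the higher ones on both.

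Pax6, a paired-box factor of neural progenitors and the eye, had 4 probe sets above the limit. The brightest (1419271_at) read 385 and 387 with BMP-2, against 380 and 405 without, a difference of -0.02 ± 0.14 log2 (SE, adjusted p = 1.00 by limma) with overlapping groups, which turned to 0.02 log2 without untreated replicate 2. Its fold interval ran from 0.79 to 1.23. The other 3 tested Pax6 probe sets, with group means between 54.8 and 136, gave -0.39, -0.34 and 0.06 log2, each with overlapping groups and with SEs of 0.29 to 0.43. Leaving out an array turned the sign of the second and the third of these values. On these 3 probe sets the 2 treated arrays were further apart than the 2 untreated arrays, by 0.66 to 1.13 log2 against 0.08 to 0.26 log2. The remaining Pax6 probe set, of a type that can share probes with other genes, read 2.57 to 14.3 over the 4 arrays.

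Nes encodes nestin, an intermediate filament protein of neural progenitors that other dividing cells also express. The brighter Nes probe set (1449022_at) read 281 and 321 with BMP-2, against 235 and 369 without, so both treated arrays lay between the untreated ones. Its difference was 0.03 ± 0.22 log2 (SE, adjusted p = 1.00 by limma) and turned to -0.01 after quantile normalization. It was -0.30 log2 without untreated replicate 1 and 0.36 log2 without untreated replicate 2. A second probe set (1418289_at) read 272 and 295 with BMP-2, against 275 and 337 without, or -0.10 ± 0.17 log2 (SE, adjusted p = 1.00 by limma), and turned to 0.04 log2 without untreated replicate 2. The third, below the limit on every array, read 34.6 and 23.4 with BMP-2, against 50.02 and 43.2 without.

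Among genes of neuronal differentiation, Neurod1 was bright. Its promoter window is shown as background, since NeuroD1 and its relatives act through E-boxes. A link between this motif and the readings was not tested. RefSeq (GRCm38.p6) gives the 250 bases before the Neurod1 start at chr2:79456637-79456886 on the minus strand, with the E-box match in capitals.
Neurod1: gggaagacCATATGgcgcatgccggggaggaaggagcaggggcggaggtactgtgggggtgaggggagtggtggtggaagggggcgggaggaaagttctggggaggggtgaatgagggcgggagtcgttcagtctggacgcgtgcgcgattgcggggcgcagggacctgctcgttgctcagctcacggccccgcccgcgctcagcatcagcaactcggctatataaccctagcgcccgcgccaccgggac
The motif searched was CANNTG, which reads as itself on both strands, in the 300 bases from 250 before to 50 after each start. The Neurod1 window holds 1 match, CATATG, at -242 from the start. At least 1 match was found in 72.3% of the 32851 promoter windows that RefSeq gives. The 8 marker genes found there have 12 windows, of which 6 hold a match. Per gene, 4 of the 8 (Neurod1, Sox11, Otx2 and Pax6) have a match in at least 1 window, beside 75.0% of all genes there. A match is a description of the letters only.

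The Neurod1 probe sets agreed in sign. The brighter one (1426412_at) read 1361 and 1303 with BMP-2, against 1731 and 1532 without. The other (1426413_at) read 1310 and 1299 with BMP-2, against 1438 and 1528 without. On both, each treated array was lower than each untreated array, and this held after quantile normalization and after median centring. The log2 differences were -0.29 ± 0.10 (SE, adjusted p = 1.00 by limma) and -0.18 ± 0.10 (SE, adjusted p = 1.00 by limma), with fold intervals of 0.70 to 0.96 and 0.76 to 1.02. Leaving out an array moved the brighter one between -0.38 and -0.20 log2 and the other between -0.23 and -0.14 log2. Both probe sets were designed from the same sequence record, so they are repeat readings of 1 transcript and not separate evidence. The probe sets of Pou3f1 and of the other genes also read RNA of the same 4 samples and are not replicates, whatever their records.

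Tubb3, the neuron-enriched beta-tubulin, read 1165 and 1110 with BMP-2, against 1150 and 1484 without. Untreated replicate 2 was the high array, and the other 3 lay between 1110 and 1165. The difference of -0.20 ± 0.13 log2 (SE, adjusted p = 1.00 by limma) became -0.02 log2 without untreated replicate 2 and -0.38 log2 without untreated replicate 1.

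Sox11, a SOX factor of neural progenitors and newborn neurons, has the most probe sets of the 10 genes. Its window was picked because its tested probe sets had the other sign from those of Neurod1, though most of those signs did not hold in every alternative. The window is shown for its letters only. It holds 2 E-box matches, CAGCTG at -210 and CATATG at -32, and of the 4 Otx2 windows, not shown, 3 hold at least 1. RefSeq (GRCm38.p6) gives these 250 bases at chr12:27342719-27342968 on the minus strand, again with matches in capitals.
Sox11: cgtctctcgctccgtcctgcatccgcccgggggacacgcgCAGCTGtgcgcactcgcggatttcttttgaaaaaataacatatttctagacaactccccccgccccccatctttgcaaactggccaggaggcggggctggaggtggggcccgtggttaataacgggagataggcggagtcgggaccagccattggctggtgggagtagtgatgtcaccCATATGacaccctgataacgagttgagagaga
The brightest Sox11 probe set (1436790_a_at) read 712 and 709 with BMP-2, against 757 and 659 without, so both treated arrays lay between the untreated ones. The difference was 0.01 ± 0.12 log2 (SE, adjusted p = 1.00 by limma). The next (1453125_at) read 412 and 423 with BMP-2, against 339 and 354 without. These groups did not overlap, and the difference was 0.27 ± 0.14 log2 (SE, adjusted p = 1.00 by limma). The other 3 tested probe sets gave 0.07, 0.12 and 0.24 log2 with overlapping groups. All 5 were thus higher with BMP-2 by 0.01 to 0.27 log2, but the sign held in every alternative for only 2 of them (1453125_at and 1453002_at). The brightest turned to -0.02 log2 after quantile normalization and after median centring and to -0.09 without untreated replicate 2. Without treated replicate 2, 1429372_at turned to -0.21 log2 and 1429051_s_at to -0.0031, and 1453002_at was 0.0071 log2. By the platform annotation 4 of the 5 share sequence records in pairs, and one of them is of a type that can share probes with other genes. The remaining Sox11 probe set, with group means below the limit, read 37.0 and 29.2 with BMP-2, against 19.7 and 36.5 without.

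**Figure D2:**
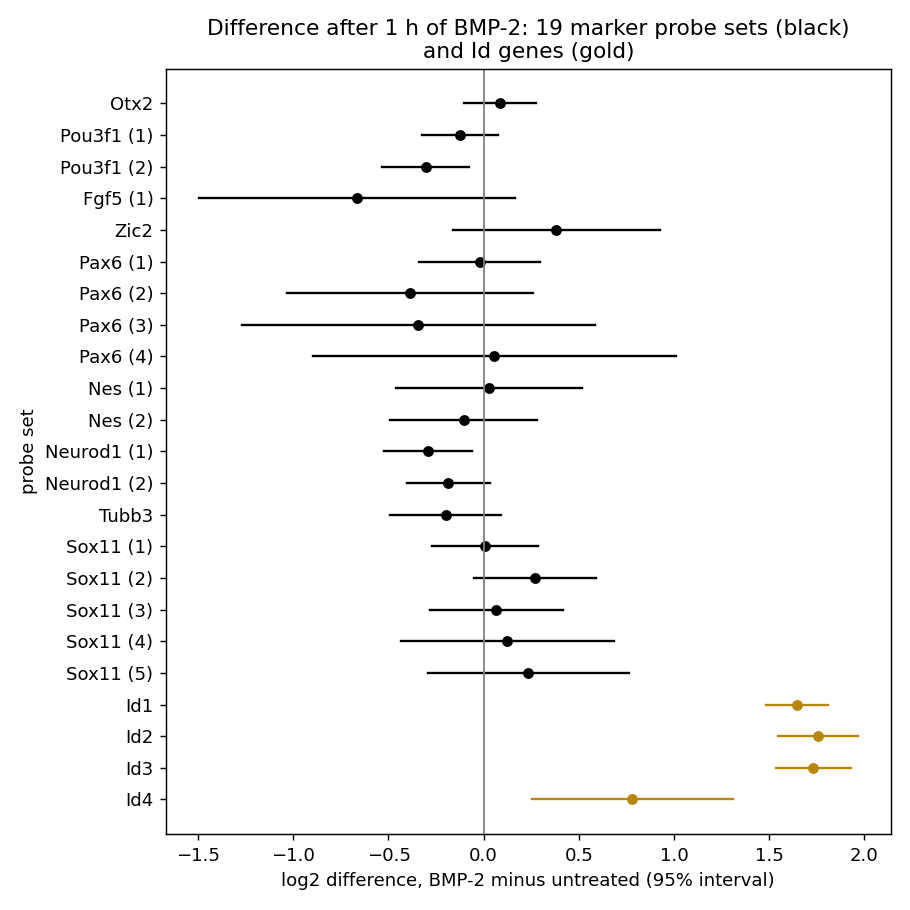
Log2 difference, BMP-2 minus untreated, with its 95% interval from limma, for the 19 tested marker probe sets in black and the brightest probe sets of Id1 to Id4 in gold. Numbers in parentheses rank the probe sets of a gene by brightness. The intervals of 17 black points cross 0, those of Pou3f1 (2) and Neurod1 (1) lie below it, and the Id1, Id2 and Id3 intervals lie above 1.4.

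Of the 5 genes with more than 1 tested probe set, 3 (Pou3f1, Neurod1 and Sox11) had the same sign on all of theirs, while Pax6 and Nes had probe sets on either side of 0. The distance between the lowest and the highest difference of a gene was 0.11 log2 for Neurod1, 0.13 for Nes, 0.18 for Pou3f1, 0.26 for Sox11 and 0.44 for Pax6. The gene with the most distance, Pax6, is the one whose further probe sets were dim.

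The treatment difference was set against the gap between replicate arrays of the same group. It was larger than both gaps for 5 of the 19 probe sets (26.3%), both of Neurod1 and 1 each of Otx2, Pou3f1 and Sox11, beside 17.5% of all tested probe sets. For Fgf5 and Zic2, the genes furthest from 0 on their brightest probe set, the gap between the untreated arrays was 1.06 and 0.81 log2, more than the difference itself.

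**Figure D3:**
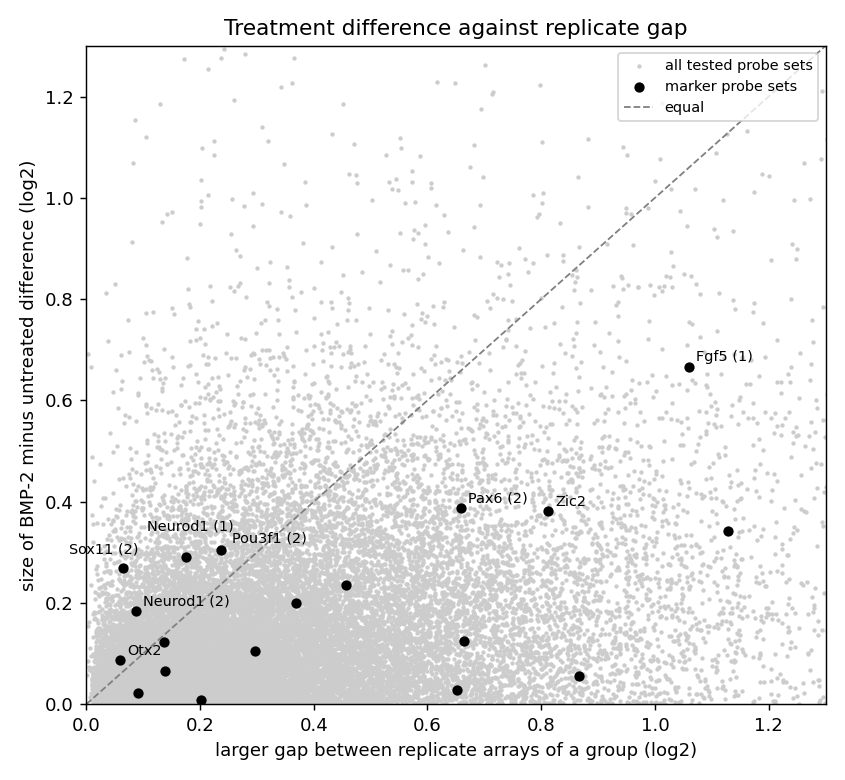
Size of the BMP-2 minus untreated difference (vertical, log2) against the larger of the 2 gaps between replicate arrays (horizontal, log2), for the marker probe sets in black and all tested probe sets in grey, with both axes ending at 1.3 so that points beyond are not drawn. The dashed line marks equal sizes, and the 5 labelled points of Neurod1, Otx2, Pou3f1 and Sox11 lie above it, while Fgf5, Zic2 and Pax6 (2) lie below.

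The precision sets what could have been seen. A further probe set would have needed a p of 1.1e-05 to pass beside the 5 that did. With its own fitted error, the Otx2 probe set would have needed a difference of 0.69 log2 (1.61-fold), the brighter Neurod1 probe set 0.84, Tubb3 1.05 and Fgf5 3.0 log2. Differences of the size seen in these genes were therefore not detectable with 2 arrays per group. With 2 arrays against 2, an exact permutation of the labels cannot give a two-sided p below 0.333 for a single gene.

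Beyond Id1, Id2 and Id3, no other gene of the lists below passed. Each gene is given by its brightest probe set. Of 16 further primed epiblast genes, all measured, 8 were higher and 8 lower, with a median of 0.00 log2. Fgf15, a growth factor, read 771 and 647 with BMP-2, against 512 and 518 without (0.46 log2, adjusted p = 1.00 by limma). Lef1, a nuclear partner of beta-catenin, differed by 0.27 log2, and Etv4, an ETS factor downstream of FGF signals, by -0.23 log2. Pim2, a kinase gene, differed by -0.15 log2. The groups of these 4 genes, those with the smallest p by limma in the list, did not overlap. Of all 16 genes, 3 were higher and 2 lower without overlap, beside 28.4% of all tested probe sets.

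Of 24 other neural plate and regional genes on the array 11 were above the limit, 7 higher and 4 lower, with a median of 0.14 log2. Gbx2, a homeobox gene of the naive state and of the mid-hindbrain boundary, read 889 and 802 with BMP-2, against 1378 and 1121 without (-0.56 ± 0.13 log2, SE, adjusted p = 0.91 by limma). Zic5 and En2 differed the other way, by 0.24 and 0.40 log2, and Msi1, an RNA-binding protein gene of neural progenitors, by 0.30 log2. Without untreated replicate 2 the difference was 0.15 log2 for Zic5 and 0.14 for Msi1, and without treated replicate 2 it was 0.25 for En2. The groups of these 4 genes, again those with the smallest p by limma in the list, did not overlap. Of the 11 genes above the limit, 4 were higher and 2 lower without overlap, beside 28.4% of all tested probe sets. A further 13 genes of the list, Olig2, Rax and Lhx2 among them, lay below the limit.

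Of 15 proneural and Notch genes on the array 9 were above the limit, 4 higher and 5 lower, with a median of -0.11 log2. Dll1, a Notch ligand that proneural factors induce, read 503 and 559 with BMP-2, against 815 and 869 without (-0.67 ± 0.12 log2, SE, adjusted p = 0.433 by limma). With an array left out the difference ran from -0.74 to -0.59 log2, and Dll1 passed in no alternative that kept all 4 arrays. Atoh1, a proneural helix-loop-helix factor, was dim and read 48.6 and 70.9 with BMP-2, against 125 and 116 without (-1.04 ± 0.32 log2, SE, adjusted p = 1.00 by limma). Its treated replicate 1 lay below the signal limit of 53.0, and the difference ran from -1.31 to -0.76 log2 with an array left out. Tcf3, which encodes the E proteins E12 and E47 that Id proteins bind, differed by -0.21, -0.29 and -0.24 log2 on 3 probe sets (adjusted p = 1.00 for each by limma), with overlapping groups on the last. Its brightest probe set read 3390 and 3421 with BMP-2, against 3579 and 4329 without, and the difference was -0.07 log2 without untreated replicate 2. Neurog3 differed by 0.34 log2 with overlapping groups (0.04 to 0.64 log2 with an array left out). Neurog1, Neurog2, Neurod4, Neurod6, Hes3 and Hes5 lay below the limit.

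Of 19 pan-neuronal genes 16 were above the limit, 7 higher and 9 lower, with a median of -0.06 log2. At an unadjusted p under 0.05 by limma there were 0 of the 16, beside 3.07% of all tested probe sets. That level was met by 2 further primed epiblast, 3 neural plate and regional, 2 proneural and Notch genes and 2 embryonic stem cell markers. Nefl, a neurofilament gene, differed by 0.20 log2, Tubb2b by -0.18, Sox12 by 0.13 and Gap43 by -0.21 log2 (adjusted p = 1.00 for each by limma). Without untreated replicate 2 these became 0.05 for Nefl, -0.0063 for Tubb2b, 0.19 for Sox12 and 0.04 log2 for Gap43. Tubb2b was also -0.0034 log2 without treated replicate 1. Second probe sets gave 0.03 log2 for Nefl and 0.61 log2 for Sox12. Among the 17 embryonic stem cell markers 9 were higher and 8 lower, from -0.20 log2 for Nr0b1 to 0.36 for Tbx3, both without overlap and both named after their values were seen (adjusted p = 1.00 for each by limma). A second Tbx3 probe set gave 0.46 log2. Of the 17 markers, 2 were higher and 1 lower without overlap, beside 28.4% of all tested probe sets. The differences were 0.05 log2 each for Pou5f1 and Nanog and 0.01 log2 for Sox2, which turned to -0.02 after median centring and without untreated replicate 2.

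**Figure D4:**
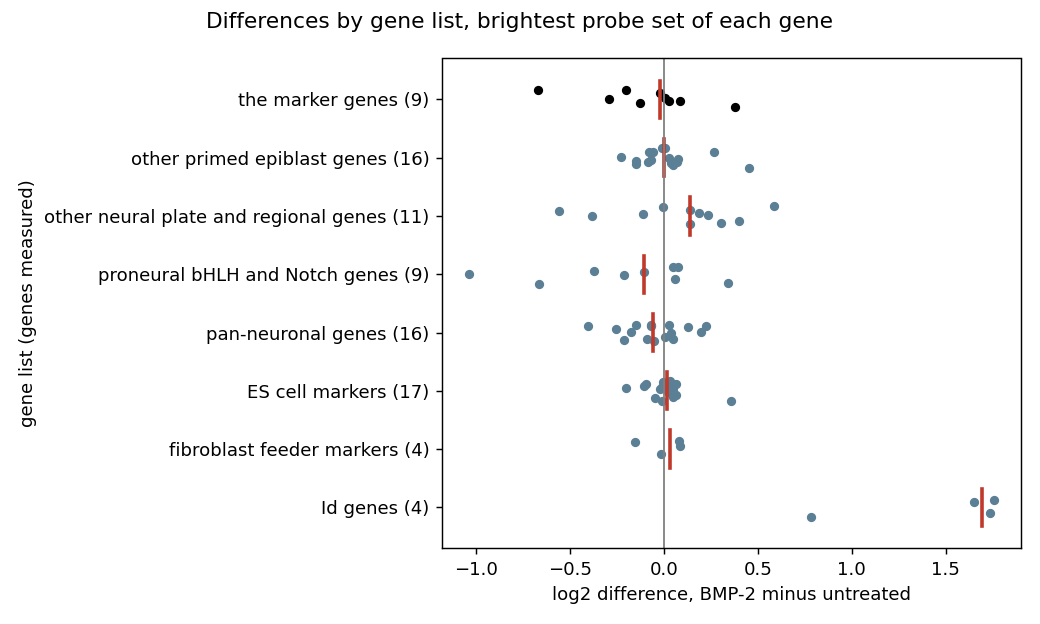
Log2 difference, BMP-2 minus untreated, of the brightest tested probe set of each gene, by gene list, with the number of measured genes in parentheses and the list median as a red bar. Points are spread vertically for visibility. The marker genes (black) lie between -0.67 and 0.38 around a median of -0.02, and the Id genes lie between 0.78 and 1.76.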

How the data were processed

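Total RNA of the 4 samples was labelled as biotinylated cRNA for Affymetrix arrays, per the labels. The authors deposited linear intensity signals per probe set, computed with MAS5 per the submitters' processing notes; its version is not given in the sources used here. The 2%-trimmed mean of the deposited intensities is 500 on all arrays, which shows a scaling within arrays. MAS5 subtracts mismatch probe signal, so dim values scatter widely after log transformation. Detection calls were not used here.

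Controls (64 probe sets) were removed, and log2 signals without a pseudocount were kept above the 40th percentile of the mean over arrays, which left 27022. The comparison of groups used limma 3.58.1 under R 4.3.3 (intensity trend, no block, two-sided, Benjamini-Hochberg over all kept probe sets), and the fit was tested on simulated data. It has 2 residual and 7.98 prior degrees of freedom, so errors are mostly borrowed from probe sets of like brightness. Intervals are at 95% and not adjusted. Gene symbols came from the platform annotation, and updating the members through Entrez identifiers changed 0. The array values name no genome build, and promoter windows are those of RefSeq.

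The members and gene lists were chosen with earlier results of these data known. Named genes were all members, the Id genes, Pou5f1, Nanog and Sox2, and from each other list the 4 with the smallest p. The alternatives tried were quantile normalization, centring on the median, a pseudocount of 25.4, no filter or a stricter one, a fit without the trend, a replicate block, each array left out in turn, an adjusted p under 0.1, and averaging the probe sets of a gene. Planned protein alignments are not used here.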

Additional observations from a re-analysis of the deposited data

How the results depend on the processing

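No marker probe set passed under any alternative run, with adjusted p of at least 0.334 by limma. The count over all probe sets was 5 and became 17 with median centring, 8 with the stricter filter, 0 without the intensity trend in limma (1023 at an unadjusted p under 0.05), 11 at an adjusted p under 0.1, and 16 to 141 when an array was left out. Titles give both groups the replicate numbers 1 and 2, and with the replicate block the count was 11. The deviations of equal-numbered arrays correlated at 0.15 across probe sets, and no label says what the number shares. Marker probe sets without overlap numbered 6 of 19, 9 with quantile normalization and 8 with median centring (7 lower in each). Without the filter they numbered 9 of 25, of which 3 lay below the limit (both of Sox1 and 1 of Nes). With an array left out they numbered 10 to 15, where a group of 1 array overlaps less by construction. For the settings without the filter and with an array left out, no share over all probe sets is given. Those counts therefore cannot show whether the markers differ from other probe sets. The median of the marker genes became -0.17 log2 with probe sets averaged, which is the mean of the Pax6 probe sets, most of them dim. Of 107 values of single genes under alternatives 97 kept their sign and 10 reversed. The changes of filter, the fit without the trend and the replicate block cannot alter a difference, so their values kept the sign by construction. So did the average over probe sets for genes with 1 tested probe set. The 97 therefore overstate how stable the signs were. With single arrays left out, Zic2 ran from -0.024 to 0.79 log2, Pax6 from -0.067 to 0.024, Nes from -0.30 to 0.36 and Sox11 from -0.091 to 0.11. Tubb3 kept its sign, from -0.38 to -0.016. Nes also reversed with quantile normalization (-0.013), median centring (-0.0024) and averaged probe sets (-0.038), and Sox11 with quantile normalization (-0.018) and median centring (-0.022). The cause was not tested. Where signals are dim (Fgf5 and most Pax6 probe sets), only large differences could have been seen. Sox1 lay below the limit and was not part of the main test.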
